A study of Mus musculus with 12 samples.

Results

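Small nucleolar RNAs (snoRNAs) are short non-coding RNAs that work in the nucleolus as RNA-protein particles. Box C/D snoRNAs guide 2′-O-methylation of ribosomal RNA and other RNAs, box H/ACA snoRNAs guide pseudouridylation, and a few members of each class are needed to cut the ribosomal RNA precursor. In mammals most of them are trimmed from introns of host genes, many of which encode ribosomal proteins or are non-coding RNAs of the Snhg family, while a few have promoters of their own. Here the snoRNA genes were the rows of the deposited expression table whose symbol began with Snora (H/ACA) or Snord (C/D) followed by a digit. The rule found 49 of 11706 genes, 34 of H/ACA and 15 of C/D.

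The RNA came from splenic natural killer (NK) cells of C57BL6 mice, expanded in IL-15 (10 ng per mL, 6 days). Per the labels they were then kept 18 hours in IL-2 (330 U per mL) plus IL-12 (10 ng per mL). A genotype experiment held libraries labelled PKM2 WT (n = 3), from cells with 1 Cre allele at Ncr1, a gene active in NK cells, and PKM2 KO (n = 2), with the same Cre and floxed PKM2 alleles, so both groups carried Cre. A drug experiment held cells labelled wild type, with no Cre named, given TEPP-46, an activator of the PKM2 isoform of pyruvate kinase (n = 3), or its vehicle (n = 3); the labels give the TEPP-46 dose as 50 mM and the design text as 50 µM, and the vehicle as DMSO at 0.1% or as PBS. The third PKM2 KO sample was not analysed here. PKM2 KO is driven by an Ncr1 Cre, so cells in which Ncr1 was never active keep both alleles.

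The labels were read against the data first. Pkm, the gene of both pyruvate kinase isoforms, was at 221, 198 and 199 RPKM (reads normalised for gene length and library size) in PKM2 WT and at 76.7 and 78.4 RPKM in PKM2 KO, and at 1019 to 1208 RPKM in the 6 drug libraries. Ifng, the interferon gamma gene that IL-2 with IL-12 switches on in NK cells, was between 18.8 and 24.3 RPKM in the 5 genotype libraries and between 797 and 1083 RPKM in the 6 drug libraries, although all were labelled as given both cytokines. In the authors' deposited table the mean ratio of Pkm was 5.78 for cytokine-treated over unstimulated wild-type cells, 0.539 for PKM2 KO over WT with cytokines and 0.396 without; here vehicle over PKM2 WT gave 5.27 and PKM2 KO over PKM2 WT gave 0.377. All 9 NK cell markers were in the table, summing to between 4864 and 5252 RPKM in the genotype libraries and to between 16601 and 18876 RPKM in the drug libraries. Among these markers Ncr1 went the other way, at 232 to 258 RPKM in the genotype libraries and 90.5 to 134 RPKM in the drug libraries. Of other cell types, 3 of 7 T cell markers were in the table and summed to between 91.3 and 122 RPKM in PKM2 WT against 21.9 and 35.9 RPKM in PKM2 KO, and 4 of 4 basophil and mast cell markers summed to between 80.0 and 188 against 44.0 and 71.1 RPKM. In the drug libraries they summed to between 18.6 and 20.3 RPKM for T cells and to between 6.62 and 18.5 RPKM for basophils and mast cells. Of 6 myeloid markers the table held 1, Itgax, which NK cells share, at 239 to 278 RPKM in the genotype libraries and 9.80 to 16.3 RPKM in the drug libraries, and of 5 B cell and 4 erythroid markers none. Their part in the results below was not tested, and in bulk RNA fewer cells of a type and less RNA per cell cannot be told apart. The sources name both poly(A) selection and total RNA, and the non-polyadenylated 7SL and 7SK genes Rn7s1, Rn7s2 and Rn7sk held 48.3% to 56.2% of the summed RPKM of the genotype libraries and 32.4% to 42.0% of that of the drug libraries.

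The sequences of members on which the results turn are given here, 5′ to 3′ on the strand of the gene, from the GENCODE M21 transcripts of the GRCm38 build. They are the near-identical pair Snora73a and Snora73b, members that differed between groups and are described below, and Snord118, a C/D member with no host gene. For H/ACA members capitals mark the ACA of the 3′ end, searched in the last 8 bases. For C/D members they mark the C box (TGATGA) in the first 20 bases and the D box (CTGA) in the last 15 bases.
Snora73a: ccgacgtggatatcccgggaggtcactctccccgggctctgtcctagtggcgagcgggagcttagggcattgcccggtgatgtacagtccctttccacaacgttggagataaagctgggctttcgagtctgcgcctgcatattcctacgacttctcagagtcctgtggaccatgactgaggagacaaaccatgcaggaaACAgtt
Snora73b: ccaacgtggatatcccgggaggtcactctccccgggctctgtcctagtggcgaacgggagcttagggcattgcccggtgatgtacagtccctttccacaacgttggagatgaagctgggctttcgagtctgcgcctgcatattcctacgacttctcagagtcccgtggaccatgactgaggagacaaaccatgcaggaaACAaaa
Snora81: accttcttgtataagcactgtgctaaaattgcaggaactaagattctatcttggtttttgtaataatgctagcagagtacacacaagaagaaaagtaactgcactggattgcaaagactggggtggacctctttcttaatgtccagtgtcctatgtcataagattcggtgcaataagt
Snora61: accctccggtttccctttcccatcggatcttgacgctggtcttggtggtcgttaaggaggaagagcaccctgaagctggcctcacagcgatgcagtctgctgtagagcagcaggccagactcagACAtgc
Snora69: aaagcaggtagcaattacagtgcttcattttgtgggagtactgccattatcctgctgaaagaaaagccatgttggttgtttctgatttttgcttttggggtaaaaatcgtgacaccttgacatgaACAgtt
Snord17: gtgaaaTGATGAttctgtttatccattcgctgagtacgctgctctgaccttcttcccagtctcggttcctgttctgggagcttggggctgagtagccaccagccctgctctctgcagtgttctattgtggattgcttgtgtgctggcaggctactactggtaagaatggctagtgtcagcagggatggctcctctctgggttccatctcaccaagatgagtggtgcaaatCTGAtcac
Snord8: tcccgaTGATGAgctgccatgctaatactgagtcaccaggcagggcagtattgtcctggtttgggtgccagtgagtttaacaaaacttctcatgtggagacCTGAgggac
Snord118: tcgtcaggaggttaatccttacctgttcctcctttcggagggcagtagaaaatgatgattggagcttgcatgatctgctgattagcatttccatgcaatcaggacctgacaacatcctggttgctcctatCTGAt
Snord21: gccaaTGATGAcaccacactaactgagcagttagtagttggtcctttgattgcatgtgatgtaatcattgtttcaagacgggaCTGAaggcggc

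In GRCm38 the printed H/ACA genes lie as Snora73a at chr4:132352775-132352979 (minus strand), Snora73b at chr4:132352322-132352526 (minus strand), Snora81 at chr16:23110756-23110933 (plus strand), Snora61 at chr4:132310240-132310369 (plus strand) and Snora69 at chrX:37082912-37083042 (minus strand). The printed C/D genes lie as Snord17 at chr2:144265979-144266216 (minus strand), Snord8 at chr14:52209785-52209894 (minus strand), Snord118 at chr11:69073427-69073561 (plus strand) and Snord21 at chr5:107904555-107904648 (plus strand).

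The motifs separated the classes as the names do. The terminal ACA was in 32 of 34 H/ACA members (94.1%; 95.2% of the 42 annotated Snora genes) and in 2 of 15 C/D members (13.3%; 7.07% of the 99 annotated Snord genes). The D box was in 14 of 15 C/D members (93.3%; 92.9% of annotated Snord genes) and in 2 of 34 H/ACA members (5.88%; 7.14% of annotated Snora genes). The stricter C box string was in 9 of 15 C/D members (60.0%; 70.7% of annotated Snord genes) and in 0 of 34 H/ACA members (0% of annotated Snora genes). In the printed Snora81, ACA was not in the last 8 bases, and in the printed Snord118 TGATGA was not in the first 20. Snora73a and Snora73b, both 205 bases long, differ at 7 positions without a gap, an identity of 96.6%.

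The table does not hold all snoRNAs of the mouse. All 42 annotated Snora genes are at least 120 bases long, while 60 of the 99 annotated Snord genes are shorter than 90 bases, and the shortest gene of the whole table had 90. The members ran from 90 to 238 bases. Of the 49, 44 lay on the same strand within a host gene, 22 in introns of every annotated host transcript and 22 inside an exon of at least 1 of them. The 5 with no host were Snora17, Snora43, Snora57, Snord13 and Snord118. Some members shared a host and so were not independent. Snora16a, Snora44 and Snora61 lie in Snhg12, Snord15a and Snord15b in Rps3, Snord43 and Snord83b in Rpl3, and Snora73a and Snora73b in the locus of Rcc1 and Snhg3. For 18 members another annotated transcript was at least 90% identical, and for 10 at least 95%, so reads of these could be split between copies.

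What 1 RPKM stood for depended on length. For genes of 94 to 150 bases, 72.2% of 1104 low values lay within 0.05 of a whole multiple of a step. The step depended only on the library and the gene length, and was fitted to these same values to bring them near whole multiples. Values spread evenly give 10% for a step fixed beforehand and more for a fitted one, so 10% is a low reference. The step is read here as the worth of 1 counted read. Its size fell between 15.9-fold and 26.5-fold from 94 to 148 bases, where length alone gives 1.57-fold. At 131 bases, a length within the range of most H/ACA genes, 1 read was worth 4.84, 3.99 and 3.89 RPKM in PKM2 WT, 5.53 and 7.24 in PKM2 KO, 4.90, 1.93 and 2.86 in vehicle and 4.40, 5.13 and 5.62 in TEPP-46. The libraries thus differed up to 3.76-fold in this measure of depth, with vehicle replicate 2 the deepest and PKM2 KO replicate 2 the shallowest, and both PKM2 KO libraries were shallower than every PKM2 WT library. RPKM levels of members of different length are therefore not comparable, and an order by RPKM below is that of the listed values alone. Reads are given beside members of 94 to 150 bases where the results turn on them; for the longer Snora73a, Snora73b, Snora74a, Snora81, Snora23 and Snord17 they could not be read.

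**Figure D1:**
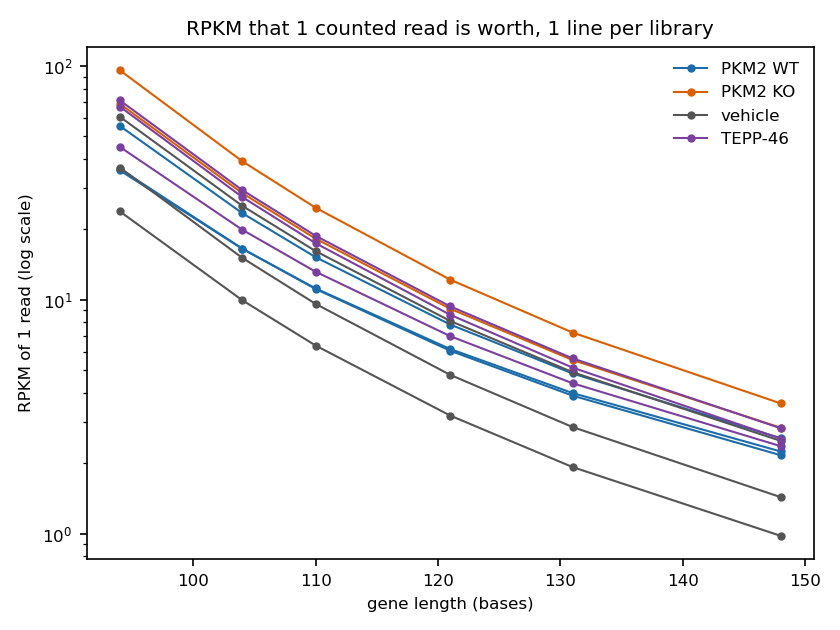
RPKM that 1 counted read was worth (log axis) against gene length in bases, with 1 line for each of the 11 libraries coloured by group. The value fell steeply with length in every library, from 95.7 RPKM at 94 bases to 3.61 RPKM at 148 bases in PKM2 KO replicate 2, the highest line, and from 23.9 to 0.980 RPKM in vehicle replicate 2, the lowest.

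Most members rested on few reads. Of the 41 members in the length range, 28 averaged under 5 reads per library, 8 averaged 5 to 20 and 5 averaged at least 20. Values that were not whole multiples followed the gene's place. Among values under 8.5 reads, 28 of 28 were whole for members with no host, 70 of 79 (88.6%) for members lying in introns only, and 32 of 81 (39.5%) for members inside an exon of a host transcript. Without the members that have a copy of at least 90% identity, 64 of 65 (98.5%) were whole for members in introns or with no host and 21 of 41 (51.2%) for members inside an exon. At the low end, 7 values of members inside an exon stood for less than 0.5 of a read, such as 0.24 RPKM for Snora70 in PKM2 WT replicate 3, and no value of the other members did.

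The highest mean RPKM was listed for Snora73a and Snora73b, the U17 snoRNAs, known in Xenopus to be needed to cut the precursor of the small ribosomal subunit RNA. In Snora73a, on chromosome 4, the level was 2827, 2236 and 1834 RPKM in PKM2 WT, 2520 and 2443 in PKM2 KO, 1119, 1236 and 702 in vehicle and 897, 971 and 576 in TEPP-46. Snora73b stood at 1551, 1307 and 864 RPKM in PKM2 WT, 1251 and 1216 in PKM2 KO, 825, 779 and 422 in vehicle and 656, 634 and 358 in TEPP-46. Every genotype library was above every drug library for both. Since their reads can be exchanged, their sum is the safer measure, and it ran from 2697 to 4378 RPKM in the genotype libraries and from 934 to 2014 RPKM in the drug libraries. Snora74a (U19), 196 bases long and inside an exon of a non-coding host transcript, lay at 1630, 1354 and 965 RPKM in PKM2 WT, 1472 and 1355 in PKM2 KO, 430, 379 and 278 in vehicle and 324, 308 and 256 in TEPP-46. These 3 genes held between 74.5% and 89.4% of the summed RPKM of all H/ACA members of a library, a share that depends on length as well. Snora7a in Rpl32 and Snora78 in Snhg9 averaged 161 and 137 RPKM over the libraries.

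Among C/D members Snord15b had the highest mean RPKM, a guide hosted by the ribosomal protein gene Rps3. It lay at 1086, 963 and 773 RPKM in PKM2 WT, 1023 and 887 in PKM2 KO, 894, 786 and 538 in vehicle and 712, 935 and 627 in TEPP-46, which is 199 to 721 reads, and the groups overlapped. Snord15a was lower in every library, with Snord15b 4.60 to 9.25 times as high at nearly equal lengths of 145 and 148 bases. Their places differ, as Snord15b lies inside an exon of an annotated Rps3 transcript and Snord15a in introns only. Rps3 itself was at 894 to 1001 RPKM, and the part of host reads in this ratio was not tested. Snord17, the longest member, in an intron of Snx5, lay at 937, 931 and 482 RPKM in PKM2 WT, 854 and 756 in PKM2 KO, 193, 179 and 107 in vehicle and 163, 187 and 103 in TEPP-46. All genotype libraries were above all drug libraries. Replicate 3 was the lowest library of PKM2 WT, of vehicle and of TEPP-46 for Snora73a, Snora73b, Snora74a and Snord17; it also had the lowest share of 7SL and 7SK in each of these groups, at 48.3%, 32.4% and 34.2%, and the part of that in the levels was not tested.

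**Figure D2:**
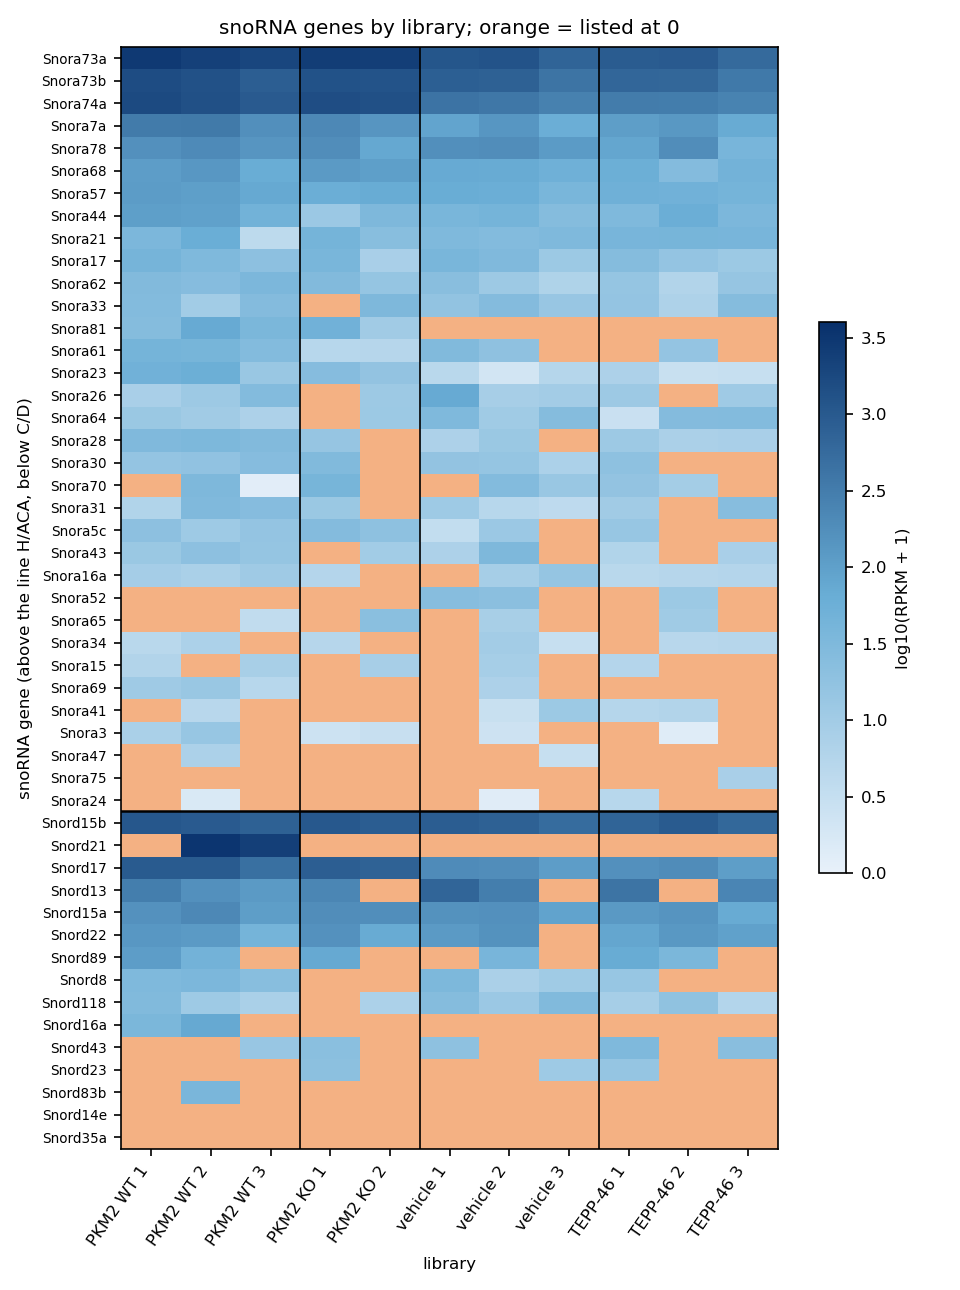
Level of each snoRNA gene, as log10(RPKM + 1), in each of the 11 libraries, with H/ACA genes above the horizontal line and C/D genes below it, sorted by mean; vertical lines part the groups and orange marks values listed at 0. Of the 49 genes, 15 were above 0 in every library, 32 were at 0 in some and 2 were at 0 in all 11.

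Other C/D members were uneven between libraries of 1 group. Snord21, in Rpl5, was listed at 3177 RPKM in PKM2 WT replicate 2 and 2307 RPKM in PKM2 WT replicate 3 and at 0 in PKM2 WT replicate 1 and in the other 8 libraries. At 94 bases those values stand for about 88.9 and 63.6 reads, and it lies inside an exon of a transcript of Rpl5, whose own level was between 719 and 892 RPKM in all 11 libraries. Snord13 (U13), which has its own promoter and in human cells guides acetylation of small subunit rRNA, lay at 305, 165 and 116 RPKM in PKM2 WT, 229 and 0 in PKM2 KO, 680, 300 and 0 in vehicle and 418, 0 and 236 in TEPP-46. That is 13, 10 and 7 reads in PKM2 WT, 8 and 0 in PKM2 KO, 27, 30 and 0 in vehicle and 21, 0 and 8 in TEPP-46. A value of 0 allows up to 3 reads, or 117, 45.3 and 82.5 RPKM in the PKM2 KO, vehicle and TEPP-46 library at 0, and in each of these groups this limit was below the values of the other libraries. Snord22 (U22), in Snhg1 and known in Xenopus for maturation of the small subunit rRNA, was at 0 in vehicle replicate 3 and at 42.4 to 156 RPKM in the other 10. Snord118 (U8), needed for large subunit rRNA maturation in Xenopus and also transcribed on its own, was above 0 in 10 of 11 libraries, at 4.70 to 28.7 RPKM or 1 to 12 reads, and at 0 in PKM2 KO replicate 1. Snora64 (U64), in Rps2, was likewise at 0 in PKM2 KO replicate 1 alone, and reached 30.9 RPKM. Snord14e and Snord35a, both 90 bases long, were at 0 in all 11 libraries.

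The classes differed in how often a gene was listed at 0. Of the 539 member values 180 (33.4%) were 0, 102 of 374 for H/ACA (27.3%) and 78 of 165 for C/D (47.3%). Length also went with the zeros. For C/D members of 90 to 110 bases 76 of 110 values were 0 (69.1%), and for C/D members of 121 to 149 bases 2 of 44 (4.55%), against 96 of 319 (30.1%) for H/ACA members of that length. All 10 members of at most 110 bases were C/D, so class and length cannot be told apart there. Other short genes had more zeros, with 55.1% for the 174 other annotated snoRNA genes and 58.5% for 121 snRNA genes under 300 bases, and 38.5% for 21 scaRNA genes; genes of 300 bases or more had 0.245%. By place, 36.8% of values were 0 for members inside exons, 34.7% for those in introns and 12.7% for those with no host.

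By library, the zeros numbered 13, 8 and 13 of 49 in PKM2 WT, 19 and 22 in PKM2 KO, 19, 10 and 21 in vehicle and 14, 20 and 21 in TEPP-46. Both PKM2 KO libraries had more zeros than any PKM2 WT library, and in both the worth of 1 read was higher than in any PKM2 WT library, so genotype and depth cannot be told apart for this count. The deepest library, vehicle replicate 2, had 3 H/ACA zeros, the fewest of any library. Yet vehicle replicate 3, second by the worth of 1 read at 131 bases though not at 94 bases, had 12. The median level over all members of a class, each gene's 0 included, was 16.7 to 21.4 RPKM for H/ACA in PKM2 WT, 8.92 and 11.4 in PKM2 KO, 5.76 to 12.9 in vehicle and 5.29 to 9.83 in TEPP-46. For C/D it was 12.6 to 44.7 RPKM in PKM2 WT and 0 to 19.6 RPKM in the other 8 libraries, 4 of them at 0, so the groups overlapped.

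**Figure D3:**
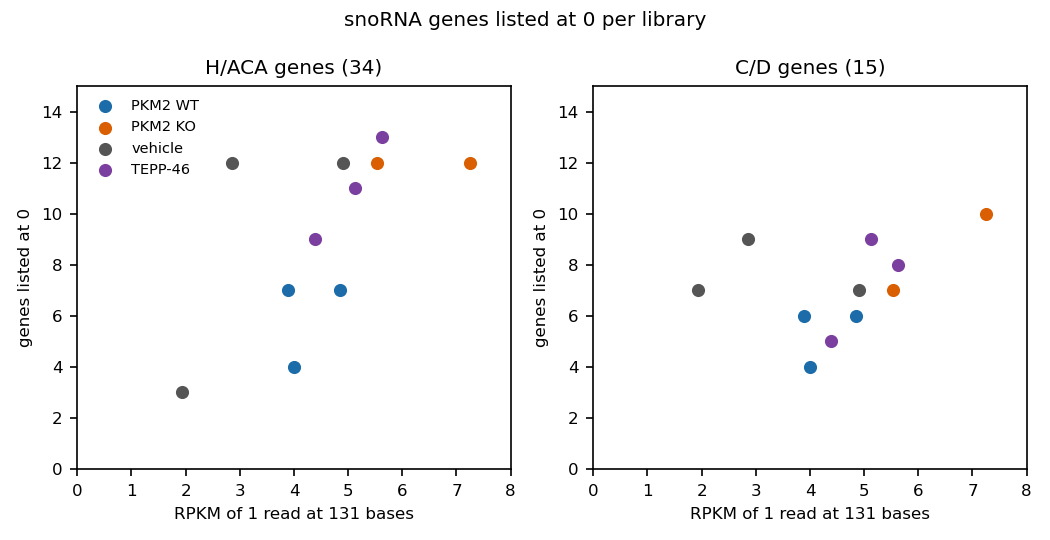
Number of snoRNA genes listed at 0 in each library (vertical axis) against the RPKM that 1 read was worth at 131 bases (horizontal axis, higher for shallower libraries), for the 34 H/ACA genes and the 15 C/D genes; points are libraries coloured by group. PKM2 KO libraries lie at 12 H/ACA zeros and at 7 and 10 C/D zeros, to the right of the PKM2 WT libraries at 4 to 7 and 4 to 6.

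The genotype comparison concerns the loss of PKM2 from NK cells. Of the 44 members with a mean of at least 1 RPKM, 2 were called by limma at an adjusted p under 0.05, Snord8 and Snora61, both lower in PKM2 KO, which is 4.55% of members against 0.0987% of all 11142 genes tested. Short genes made up most calls of this comparison: 9 of its 11 genes were under 300 bases, of 423 such genes tested. The 5 members below the limit, Snora24, Snora47, Snora75, Snord14e and Snord35a, were not tested. Leaving out PKM2 WT replicate 2 gave a count of 1, Snord8. Without PKM2 WT replicate 1 Snord21 passed in place of Snora61. Without PKM2 KO replicate 1, a fit with 1 PKM2 KO library, neither Snord8 nor Snora61 passed. The count was 0 with the spread from all 4 groups or with only genes under 300 bases tested. Over the 44 the median log2 difference was -0.74, against 0.00 over all genes and -0.09 over the 379 other genes under 300 bases tested. It was -0.06 over other annotated snoRNA genes, -0.47 over snRNA genes and 0.05 over scaRNA genes. Above 0 were 14 of the 44 (31.8%), against 35.1%, 21.8% and 58.8% of these sets in turn. The share was 37.7% for other genes under 300 bases and 50.5% for genes of 300 bases or more. Both PKM2 KO libraries were shallower than every PKM2 WT library, so genotype and depth cannot be told apart here.

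Snord8 (ENSMUSG00000093044, chromosome 14, 52209785 to 52209894, GRCm38) lies in an intron of Chd8, opposite the gene Gm26590, and was at 30.4, 33.5 and 22.2 RPKM in PKM2 WT against 0 in both PKM2 KO libraries (limma adjusted p = 0.00369). No fold is given, since PKM2 KO was listed at 0. In reads this was 2, 3 and 2 against 0 and 0. A 0 allows up to 3 reads, or 54.8 and 74.2 RPKM in the PKM2 KO libraries, more than any PKM2 WT value, so a difference was not detectable at this depth. In the drug experiment it stood at 32.2, 6.37 and 9.60 RPKM in vehicle and at 13.1, 0 and 0 in TEPP-46, or 2, 1 and 1 reads against 1, 0 and 0. The host Chd8 was at 33.3, 40.0 and 39.8 RPKM in PKM2 WT against 39.4 and 42.2 in PKM2 KO. The call was lost without PKM2 KO replicate 1 (limma adjusted p = 0.0570) and with the spread taken from all 4 groups (limma adjusted p = 0.113).

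Snora61 (ENSMUSG00000064949, chromosome 4, 132310240 to 132310369), inside an exon of Snhg12, was at 42.9, 40.0 and 26.7 RPKM in PKM2 WT against 3.97 and 4.08 in PKM2 KO. The groups did not overlap, and the log2 difference was -2.87 (SE 0.22, limma adjusted p = 0.0466), with both PKM2 KO libraries below all PKM2 WT libraries. Its values stood for 8.48, 9.64 and 6.58 reads against 0.686 and 0.537, none of them whole. In PKM2 KO 1 read was worth 5.79 and 7.60 RPKM, more than either listed value, while their SD was 0.08 RPKM. The SE therefore does not cover the counting error of these 2 values. For Snora61, 2 other annotated transcripts are at least 90% identical to it. In the drug experiment it was at 28.3, 17.8 and 0 RPKM in vehicle and 0, 14.9 and 0 in TEPP-46. The host Snhg12 was at 11.7, 10.9 and 15.6 RPKM in PKM2 WT against 11.8 and 9.17 in PKM2 KO, which overlapped. Leaving out PKM2 WT replicate 1 or 2 or either PKM2 KO library ended the call, with limma adjusted p from 0.163 to 0.402, while the log2 difference stayed between -3.08 and -2.75 over the 5 libraries left out in turn. Where 1 PKM2 KO library was left, here and for Snord8, it was assumed to vary like PKM2 WT.

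Neighbours in the same host did not pass. Snora44, in Snhg12 as well, was at 99.7, 94.9 and 46.3 RPKM in PKM2 WT against 11.2 and 31.0 in PKM2 KO (log2 difference -1.96, SE 0.54, limma adjusted p = 0.513). Snora16a, the third of this host, stood at 7.87, 6.63 and 9.65 RPKM against 4.45 and 0, or 2, 2 and 3 reads against 1 and 0, and its 0 allows up to 17.3 RPKM, more than any PKM2 WT value. Snora69, in an intron of Rpl39 on chromosome X, was at 9.68, 12.0 and 3.89 RPKM in PKM2 WT against 0 in both PKM2 KO libraries (limma adjusted p = 0.333), which is 2, 3 and 1 reads against 0 and 0; without PKM2 WT replicate 3 it passed (limma adjusted p = 0.0252). For Snora69 the zeros allow up to 16.6 and 21.7 RPKM in PKM2 KO, more than any PKM2 WT value. No member was at 0 throughout PKM2 WT and above 0 in both PKM2 KO libraries. For members with high RPKM the 95% interval of the log2 difference ran from -0.39 to 0.46 for Snord15b, from -0.36 to 0.63 for Snora73a, from -0.63 to 0.70 for Snora73b and from -0.46 to 0.73 for Snora74a. It ran from -4.96 to 0.23 for Snord118 and from -4.24 to 1.29 for Snora64.

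The drug comparison asks what TEPP-46 changes in cytokine-treated cells. No member of the 44 passed with limma at an adjusted p under 0.05, as none of the 11142 genes did (0%), and 1 member had an unadjusted p under 0.05. That was Snora21, in an intron of Rpl23, at 30.3, 26.7 and 30.7 RPKM in vehicle and 38.1, 39.2 and 38.8 in TEPP-46. The groups did not overlap, with a log2 difference of 0.40 (SE 0.06, limma adjusted p = 0.316), but the values stood for 8, 18 and 14 reads against 11, 10 and 9. Over the 44 members the median log2 difference was -0.18, against -0.02 over all genes. Other short genes were similar, at -0.18 for other annotated snoRNA genes, -0.14 for snRNA genes and -0.31 for scaRNA genes. Over all other genes under 300 bases it was -0.11. The 95% interval ran from -0.54 to 0.63 for Snord15b, from -1.04 to 0.40 for Snora73a, from -1.16 to 0.58 for Snora73b, from -0.72 to 0.17 for Snora74a and from -0.85 to 0.69 for Snord17. No member was at 0 in every library of one of these groups and above 0 in every library of the other.

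Whether the genotype and the drug effect differ was tested directly. No member of 44 passed (0.0539% of all genes did), and 2 had an unadjusted p under 0.05. Snora44 had the smallest p of the members: its log2 difference of effects was -2.17 (SE 0.64, limma adjusted p = 0.588).

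The libraries labelled PKM2 WT and vehicle, the controls of the experiments, stood apart for many members. Of the 44, 14 were higher in PKM2 WT and none lower, 11 of 31 H/ACA and 3 of 13 C/D, or 31.8% of members, where 75.3% of all genes were called, 36.7% higher and 38.6% lower. Without PKM2 WT replicate 1 the count was 9, without replicate 2 it was 8, and with only genes under 300 bases tested it was 4. The share called higher was thus near that of all genes. Of the 44 log2 differences 34 (77.3%) were above 0, against 49.1% for genes of 300 bases or more. The share was 63.2% for other annotated snoRNA genes, 69.2% for snRNA genes, 82.4% for scaRNA genes and 64.6% for all other genes under 300 bases. The median was 0.99, against 0.00 over all genes, 0.45 over other annotated snoRNA genes, 1.315 over snRNA genes and 0.88 over scaRNA genes. It was 0.55 over the other genes under 300 bases. Of the latter 82 were called higher and 23 lower of 379, and of 17 scaRNA genes, close relatives that act in Cajal bodies, 10 were higher and 0 lower. The experiment, the Cre allele, the vehicle and the stimulation that the Ifng levels call into doubt all differ between these groups and cannot be told apart; the higher share of 7SL and 7SK moved with them too. So did the marker sums, higher in PKM2 WT than in vehicle for T cells (91.3 to 122 against 18.8 to 20.1 RPKM), for basophils and mast cells (80.0 to 188 against 6.62 to 16.3 RPKM) and for Itgax (256 to 278 against 9.80 to 10.4 RPKM), and lower for NK cells (4864 to 5252 against 16601 to 18123 RPKM). The NK sum does not give the direction of each gene, and Ncr1 went the other way. Its level was 241, 238 and 235 RPKM in PKM2 WT against 94.7, 90.5 and 108 RPKM in vehicle. The part of these markers in the result was not tested.

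For 11 of the called members every PKM2 WT library was above every vehicle library, as it was for 37.9% of all genes tested. Snord17 was higher by 2.27 on the log2 scale (SE 0.32, limma adjusted p = 0.000114) and Snora74a by 1.85 (SE 0.20, limma adjusted p = 2.01e-05), higher in 3 of 3 PKM2 WT libraries. Snora73a was higher by 1.19 (SE 0.26) and Snora73b by 0.90 (SE 0.32), with limma adjusted p of 0.00184 and 0.0271. Snora73b no longer passed without PKM2 WT replicate 1 or 2 or vehicle replicate 3 (limma adjusted p from 0.0761 to 0.101), and without vehicle replicate 3 its log2 difference was 0.59. Snora23, in an intron of Ipo7, lay at 47.8, 57.0 and 12.1 RPKM in PKM2 WT, 23.7 and 15.6 in PKM2 KO, 3.73, 1.10 and 4.23 in vehicle and 5.79, 1.85 and 2.08 in TEPP-46 (log2 difference of PKM2 WT and vehicle 3.16, SE 0.59, limma adjusted p = 0.000766). All 5 genotype libraries were above all 6 drug libraries for 7 members, Snora7a, Snora23, Snora73a, Snora73b, Snora74a, Snora81 and Snord17, a pattern that 33.6% of all genes tested had. Snora81, inside an exon of Eif4a2, lay at 24.8, 68.8 and 34.5 RPKM in PKM2 WT, 48.8 and 9.03 in PKM2 KO and 0 in all 6 drug libraries (limma adjusted p = 7.74e-06). Its length of 178 bases is outside the range where reads could be counted, another annotated transcript is 98.9% identical, and Eif4a2 itself was at 174 to 213 RPKM in all 11 libraries. Snora7a, Snora28, Snora44, Snora57 and Snora62 were higher by 0.82 to 2.79, in the range of 0 to 120 reads. Of these, Snora28 no longer passed without any 1 of the PKM2 WT libraries or vehicle replicate 3 (log2 difference 1.71 without the latter), Snora44 without PKM2 WT replicate 1 or 2 or vehicle replicate 1 or 3, and Snora62 without any 1 library other than vehicle replicate 1 (0.85 without vehicle replicate 3), with limma adjusted p up to 0.113, 0.114 and 0.128.

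The other 3 of the 14 calls overlapped between the groups. Snord21 was described above; without PKM2 WT replicate 2 or 3 it no longer passed. Snord16a, in Rpl4, was at 35.2, 71.4 and 0 RPKM in PKM2 WT against 0 in the other 8 libraries, which is 1, 3 and 0 reads, and no longer passed without PKM2 WT replicate 1 or 2; at 99 bases a 0 allows 45.3 to 179.6 RPKM outside PKM2 WT. Snora69 was at 0, 5.78 and 0 RPKM in vehicle, which is 0, 3 and 0 reads against 2, 3 and 1 in PKM2 WT. Its 0 in vehicle replicate 1 allows up to 14.7 RPKM, more than any PKM2 WT value, and that in replicate 3 up to 8.57 RPKM. One member went the other way without passing: Snora52, inside an exon of Rplp2, was at 0 in all 5 genotype libraries and at 23.6, 20.4 and 0 RPKM in vehicle (limma adjusted p = 0.0504).

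Host genes were compared between the same groups. Of 12 called members with a host in the table, the host was called lower for 5, called higher for 1 and not called for 6. Of all genes tested 38.6% were called lower and 36.7% higher, and Rcc1 counts once each for Snora73a and Snora73b. The host called higher was Rpl32, whose Snora7a was called higher too. The guanine exchange factor gene Rcc1, which shares its locus with Snhg3 and Snora73a and Snora73b, was at 8.44, 6.70 and 7.75 RPKM in PKM2 WT against 42.2, 39.6 and 46.2 in vehicle (log2 difference -2.34, SE 0.12, limma adjusted p = 1.16e-07). Snhg3 was at 8.56, 7.36 and 6.57 against 27.0, 23.5 and 32.6 RPKM, and Snhg12 at 11.7, 10.9 and 15.6 against 40.2, 33.5 and 52.5 RPKM. Of the snoRNAs of these hosts, Snora73a, Snora73b and Snora44 were called higher in PKM2 WT, and Snora61 and Snora16a did not pass (limma adjusted p of 0.162 and 0.424). Snx5, the host of Snord17, overlapped between the groups, at 152, 143 and 149 against 137, 127 and 148 RPKM. Over 41 members with a host in the table, mean levels of member and host had a Spearman correlation of -0.10, a description in which members share hosts and libraries and differ in length. In the genotype and the drug comparison none of the 38 host genes tested passed.

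**Figure D4:**
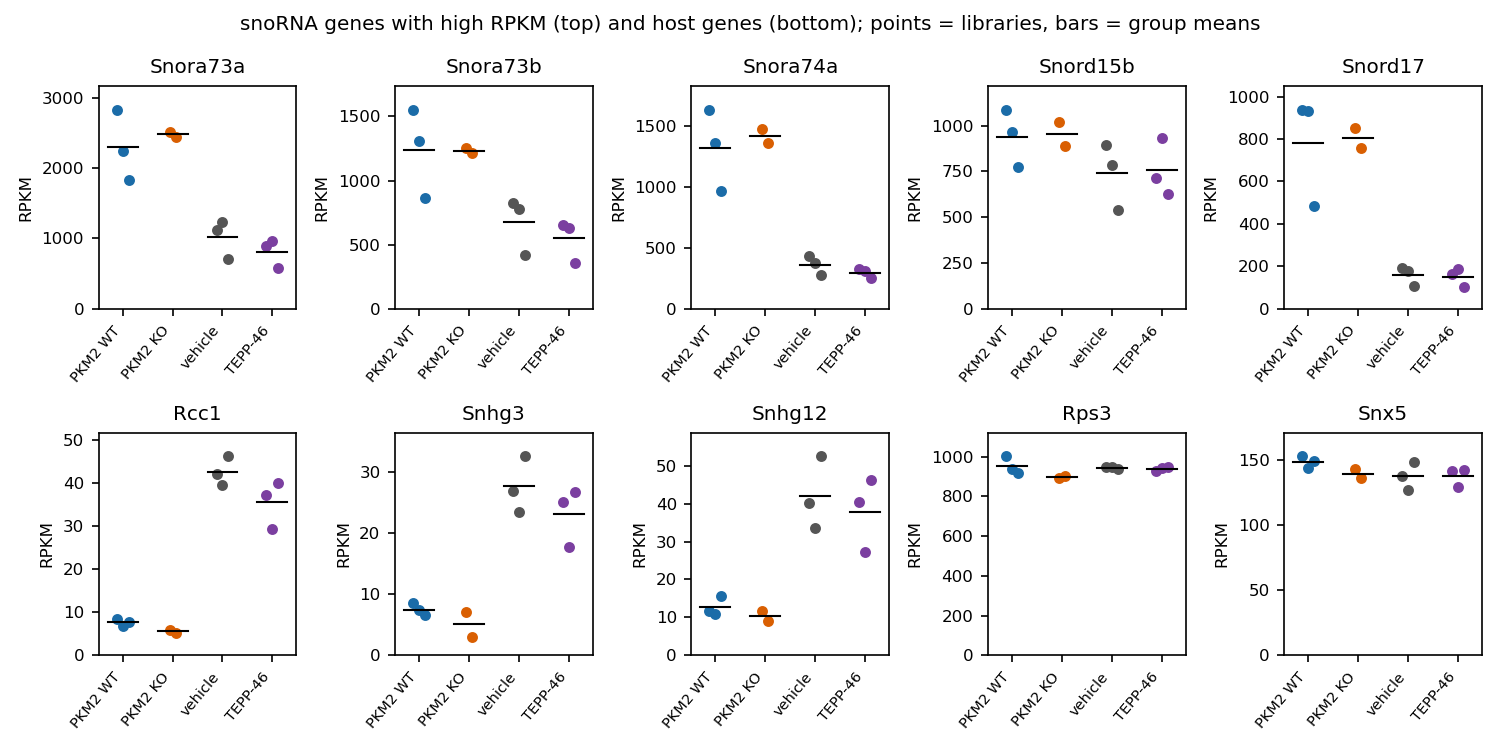
RPKM of 5 snoRNA genes with high RPKM (top) and of 5 host genes (bottom) in each library; points are libraries, horizontal bars are group means (n = 3, 2, 3 and 3) and each axis starts at 0. Snora73a, Snora73b, Snora74a and Snord17 are higher in the genotype libraries, Snord15b overlaps, Rcc1, Snhg3 and Snhg12 are lower in the genotype libraries, and Rps3 and Snx5 lie within similar ranges.

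**Figure D5:**
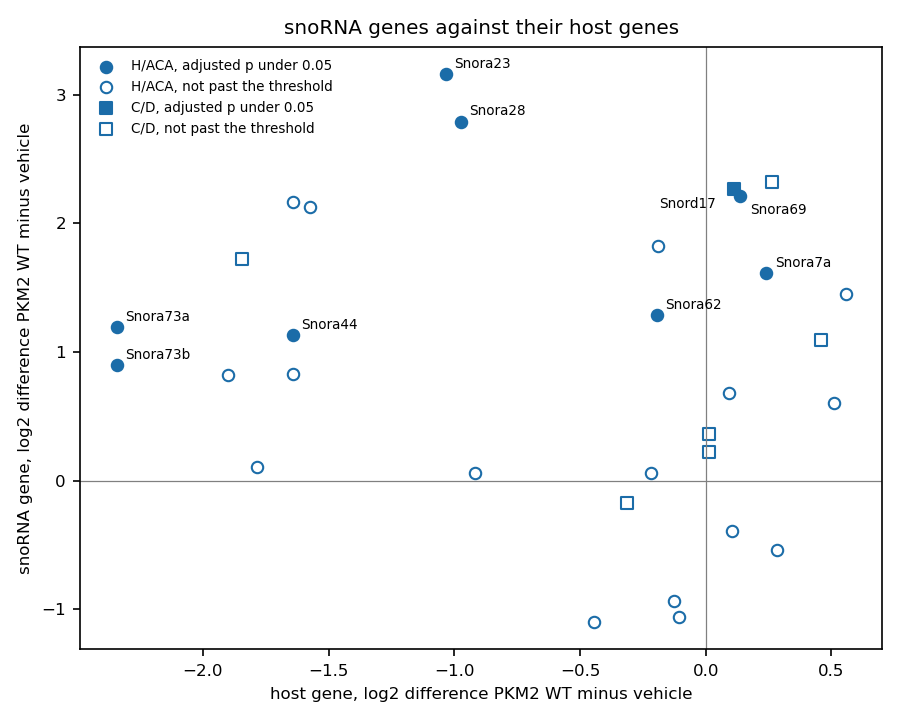
Log2 difference of PKM2 WT minus vehicle for each snoRNA gene (vertical axis) against that of its host gene (horizontal axis), for 31 members above 0 in at least 1 library of both groups; filled symbols had a limma adjusted p under 0.05. Of the 9 filled symbols 6 lie where the host difference is below 0, with Snora73a and Snora73b sharing a host. Over genes of 300 bases or more, 49.1% of the differences were above 0.

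RNA levels of the genes for snoRNA particle proteins were lower in PKM2 WT than in vehicle. All 4 measured genes for core proteins of box C/D particles were called lower, Fbl, Nop56, Nop58 and Nhp2l1, as did all 4 of box H/ACA particles, Dkc1, Gar1, Nhp2 and Nop10, with medians of -1.84 and -1.51 on the log2 scale against 0.00 over all genes (limma adjusted p under 0.05 for 38.6% of all genes in that direction). The methyltransferase gene Fbl was at 35.2 ± 1.99 RPKM in PKM2 WT against 112 ± 16.9 in vehicle (SD, n = 3 each; log2 difference -1.63, SE 0.13, limma adjusted p = 2.15e-06). The pseudouridine synthase gene Dkc1 was at 33.8 ± 4.12 against 76.2 ± 13.4 RPKM (log2 difference -1.14, SE 0.17, limma adjusted p = 0.000153). Of 20 genes for assembly and maturation factors 17 fell and 1 rose, among those that fell Ruvbl1 and Ruvbl2, the helicases of the assembly complex, by 1.51 and 1.82 on the log2 scale, and Xpo1, the export receptor that takes part in U3 and U8 maturation, by 1.32. Of 19 genes for proteins of the small subunit processome, the U3 particle that cuts the precursor, 18 fell and none rose, with a median of -1.30; Heatr1 fell by 1.55 and Utp18 by 1.58 on the log2 scale. Of 14 host genes named for their snoRNAs 10 fell and 1 rose; Snhg1 was at 38.9 ± 1.29 against 143 ± 16.0 RPKM (SD, n = 3 each). In the genotype and the drug comparison no gene of these lists passed: the median log2 differences of the core protein genes were -0.09 for C/D and -0.24 for H/ACA in PKM2 KO against PKM2 WT, and -0.14 and -0.19 in TEPP-46 against vehicle.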

How the data were processed

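Alignment used STAR and mm10, per the submitters' processing notes; the counting tool, annotation and versions are not given in these sources. The authors deposited RPKM per gene, and tables of mean ratios (fold) and p-values for the genes they listed, which hold no snoRNA gene named by the rule. Of the columns with RPKM values, 11 matched a sample and were used, and 5 matched none. No total read counts were used; depth was read from the steps of short genes, a measure chosen after seeing the data, and floors of 3 reads cover counting error only. The labels speak of biological replicates but do not say how many animals stand behind a culture, so p-values describe only how these libraries vary, in part perhaps technically.

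IDs were matched to GENCODE M21 (11675 of 11706), and copies were found with blastn 2.17.0. For the 11142 genes averaging 1 RPKM or more, log2(RPKM + 1) was tested with limma 3.58.1 in R 4.3.3 (variance trend, Benjamini-Hochberg over all genes, threshold 0.05); these fold changes understate low genes. Genotype and drug comparisons used the 2 groups compared, other contrasts all 11 libraries. Tests were checked on simulated data drawn as normal log2 values, with changes planted only in genes of higher level. These data had no whole-read steps and no depth difference between groups, so the check does not cover members of few reads. Members, gene lists and rules were chosen with earlier results of these data known. Named are Pkm, called members, the 6 highest of each class (1 is not reported here), members at 0 throughout one group, members of known role and up to 4 genes per protein or host list; others (Ifng, Snora16a, Snora21, Snora52, Snora70) were named after their values were seen. Figures used matplotlib 3.10.9.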

Additional observations from a re-analysis of the deposited data

How the results depend on the processing

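The 2 snoRNA genes called in PKM2 KO against PKM2 WT became 1 with a pseudocount of 5, with no filter on low values, with quantile normalization, without the variance trend and without members that have a copy of 90% identity, and 0 with the spread from all groups, with only genes under 300 bases and with the replicate block. Leaving out a PKM2 WT library in turn gave 1 to 3, not always the same genes. Snord21 entered without replicate 1 and Snora69 without replicate 3, and Snora61 stayed only without replicate 3. Without PKM2 KO replicate 1 neither of the 2 passed. The 14 called in PKM2 WT against vehicle became 4 with only genes under 300 bases and 8 to 15 without a library, with 9 without PKM2 WT replicate 1 and 8 without replicate 2; the replicate block gave 18. For the difference of the effects, leaving out a library gave 0 to 1 calls: Snord21 without PKM2 WT replicate 1 and Snord16a without replicate 3. TEPP-46 against vehicle gave 0 under every alternative run. Same-numbered libraries correlated at 0.0702 and -0.0967 for the genotype and at 0.0523, 0.284 and 0.275 for the drug experiment, so the numbers were not taken as pairs, and the fit with the replicate block is given only here. Counting values under 1 RPKM as 0 gave 184 zeros in place of 180. Over members above 0 in every library, the class medians were 49.7 to 96.2 RPKM for H/ACA and 151 to 805 RPKM for C/D, averaged over the libraries of a group, in place of 7.31 to 18.4 and 4.68 to 29.2. No log2 difference of a called member changed sign. Depth limits what can be detected, as 28 of the 41 members in the length range averaged under 5 reads per library.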
